A study of Mus musculus with 4 samples.

Results

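The collagen chains are the genes whose symbol is written Col, a number, the letter a and a number, each coding for 1 polypeptide of a collagen molecule. Of 18193 genes named by a probe set with a single symbol, 42 were collagen chains. They had 82 probe sets in all, and the probe set with the highest mean over the arrays represented each gene. The RefSeq gene table of the mouse lists 44 such genes, and Col6a6 and Col28a1 were not analysed here. The 42 chains comprised 11 fibrillar chains, 6 basement membrane chains of type IV, 5 chains of type VI and 20 chains of other types.

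The data were 4 Affymetrix mouse expression arrays of total RNA from hearts, with values on the log2 scale. The arrays named Tg-Sirt1 1 and Tg-Sirt1 2 came, by their labels, from mice carrying a Sirt1 transgene, and NTg 1 and NTg 2 from wild type mice without it. Sirt1 codes for an enzyme that removes acetyl groups from proteins, using NAD. The sources used here do not give the promoter that drives the transgene, the line, the strain, or the age and sex of the animals, and all hearts were snap frozen after pentobarbital at 120 mg/kg. The series asked how the transgene bears on gene expression in the heart.

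A collagen molecule is a triple helix of 3 chains, and the chains of a type are made together, trimmed, assembled outside the cell and cross-linked. Fibrillar collagens, chiefly types I and III with type V as a minor regulator, form the cables of the interstitial matrix that carry tension between heart muscle fibres. Type IV chains form the mesh of the basement membrane around each muscle cell and capillary, and type VI forms beaded filaments next to that membrane. In the heart the interstitial collagens are made mainly by fibroblasts, whereas type IV is also made by endothelial and muscle cells. Whole hearts were measured, so fewer cells of a type and less RNA per cell cannot be told apart.

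NTg 1 and Tg-Sirt1 1 gave nearly the same values throughout, so the second is called the array labelled Tg-Sirt1 1. Over 45037 probe sets their differences had an SD of 0.0759 and none reached 2-fold, whereas the other pairs of arrays had SDs of 0.342 to 0.405 and 551 to 1101 probe sets past 2-fold. Among the representative probe sets of the collagen chains the 2 arrays differed by at most 0.13. Their mean is called the near-identical pair below, and the differences between labels are also given with the pair counted once or left out. The Sirt1 probe set read 7.16 and 7.93 in hearts labelled Tg-Sirt1 (arrays 1 and 2), against 7.30 and 7.17 in NTg hearts, so Tg-Sirt1 2 alone stood above the others. The medians of the arrays lay between 6.22 and 6.30. All 8 cardiomyocyte markers had means of 12.40 to 14.12. The 3 prime minus 5 prime control difference, a measure of RNA quality, was 0.19 and 1.34 in hearts labelled Tg-Sirt1, against 0.18 and 0.69 in NTg hearts, for Gapdh, and its part in the results below was not tested.

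Upstream sequence is shown for 1 chain each of the fibrillar, type VI and other classes. It is the chain with the highest mean over the arrays among those with an annotated window, and differences between arrays played no part in the choice. The 250 bases before the annotated start are printed from the RefSeq annotation of GRCm38.p6, 5′ to 3′ on the strand of the gene, with GC boxes (GGGCGG, or CCGCCC on the other strand) and CCAAT boxes (CCAAT or ATTGG) in capitals. The window of the type I chain Col1a2 is chr6:4505368-4505617 on the plus strand, that of the type VI chain Col6a2 is chr10:76623631-76623880 on the minus strand, and that of the short-chain collagen Col8a1 is chr16:57754738-57754987 on the minus strand.
Col1a2: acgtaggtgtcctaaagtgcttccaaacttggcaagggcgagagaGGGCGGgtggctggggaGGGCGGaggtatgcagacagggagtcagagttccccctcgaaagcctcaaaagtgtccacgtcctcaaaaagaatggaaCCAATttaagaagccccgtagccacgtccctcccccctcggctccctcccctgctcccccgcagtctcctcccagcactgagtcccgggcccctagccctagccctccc
Col6a2: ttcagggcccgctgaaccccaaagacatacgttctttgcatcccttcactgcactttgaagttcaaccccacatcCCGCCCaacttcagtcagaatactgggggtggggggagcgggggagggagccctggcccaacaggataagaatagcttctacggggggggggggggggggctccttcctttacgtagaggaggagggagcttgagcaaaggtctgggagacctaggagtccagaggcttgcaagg
Col8a1: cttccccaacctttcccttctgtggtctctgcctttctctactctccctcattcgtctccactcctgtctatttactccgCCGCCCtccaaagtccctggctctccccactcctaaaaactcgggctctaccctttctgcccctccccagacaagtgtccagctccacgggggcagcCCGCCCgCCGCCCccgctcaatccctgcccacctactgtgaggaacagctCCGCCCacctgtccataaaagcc
The window of Col1a2 held 2 GC boxes and 1 CCAAT box, that of Col6a2 held 1 GC box, and that of Col8a1 held 4 GC boxes. Of the 42 chains, 33 had such a window. A GC box stood in 20 of the 33 (60.6%), against 33.0% of the windows of 27025 genes. A CCAAT box stood in 12 (36.4% against 34.5%), and TATAAA or TTTATA in 5 (15.2% against 13%). Both strands were searched, and in the 3 printed windows no match overlaps another. A match describes the letters and is no evidence of a bound factor.

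The chains Col4a1 and Col4a2 together make the common type IV molecule, and they start 21 bases apart on opposite strands. Their annotated transcripts overlap in the 22 bases from start to start, at chr8:11312805-11312826 (GRCm38.p6). Unlike the windows above, this stretch lies downstream of both annotated starts. It is shown on both strands because both genes are transcribed from it. Its capitals mark the same GC box, which is thus upstream of neither start.
Col4a1: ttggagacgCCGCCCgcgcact
Col4a2: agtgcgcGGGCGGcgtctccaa
Col4a6 and Col4a5 on chromosome X also lie on opposite strands, but their starts are 1343 bases apart and their windows share 0 bases. Further pairs of chains were not examined.

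No collagen chain passed the test between labels. The question of this comparison was whether hearts labelled Tg-Sirt1 differ from hearts labelled NTg in collagen transcripts. In limma, with Benjamini-Hochberg adjustment over 18193 genes and a threshold of 0.05, 0 of 42 chains and 0 of all genes were called (0.0%). The smallest unadjusted p of a chain was 0.0891 in limma (Col8a1), so 0 chains had an unadjusted p under 0.05, a level that 10 of all genes (0.055%) passed. With 2 arrays per label, the smallest p of an exact two-sided permutation test is 0.333. With the near-identical pair split between the labels, the missing calls do not show that the labels are alike.

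The difference between label means (Tg-Sirt1 minus NTg) was above 0 for 28 of 42 chains (66.7%, against 53.1% of all genes), below 0 for 13 and 0 for Col6a5. Its median was 0.04. Both Tg-Sirt1 arrays lay above both NTg arrays for 4 chains, Col4a3, Col4a4, Col6a2 and Col8a1, where 11.4% of all genes did so. Both lay below for 4 others, Col5a3, Col12a1, Col24a1 and Col27a1, where 9.3% of all genes did so. Either count of 4 in 42 is near the share of all genes. Because 1 array of each label belongs to the near-identical pair, separation in these 8 chains rests on gaps within that pair or smaller, such as 10.80 against 10.79 for Col6a2.

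On the representative probe sets, the largest differences of the collagen chains from the near-identical pair were on NTg 2. Over all collagen probe sets the largest was -1.92, on Tg-Sirt1 2, for a further Col8a1 probe set. Many of the interstitial collagens read lowest on NTg 2, beneath both Tg-Sirt1 2 and the near-identical pair. NTg 2 was the lowest array for 21 of 42 chains (50.0%, against 37.9% of all genes). It lay at least 1.5-fold (0.58 log2 units) below the near-identical pair for 13 chains (31.0%), where 6.01% of all genes did so, and at least 1.5-fold above the pair for 0 chains, where 2.03% did so. The 13 were Col1a1, Col1a2, Col3a1, Col5a1, Col5a2, Col4a4, Col4a5, Col6a1, Col6a2, Col6a3, Col8a1, Col14a1 and Col15a1. All of them belong to the 23 chains whose mean over the arrays was at or above the median gene (7.13), called the brighter chains. Of these 23, NTg 2 was 1.5-fold below the pair in 56.5%, against 10.2% of the 9103 genes as bright.

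**Figure D1:**
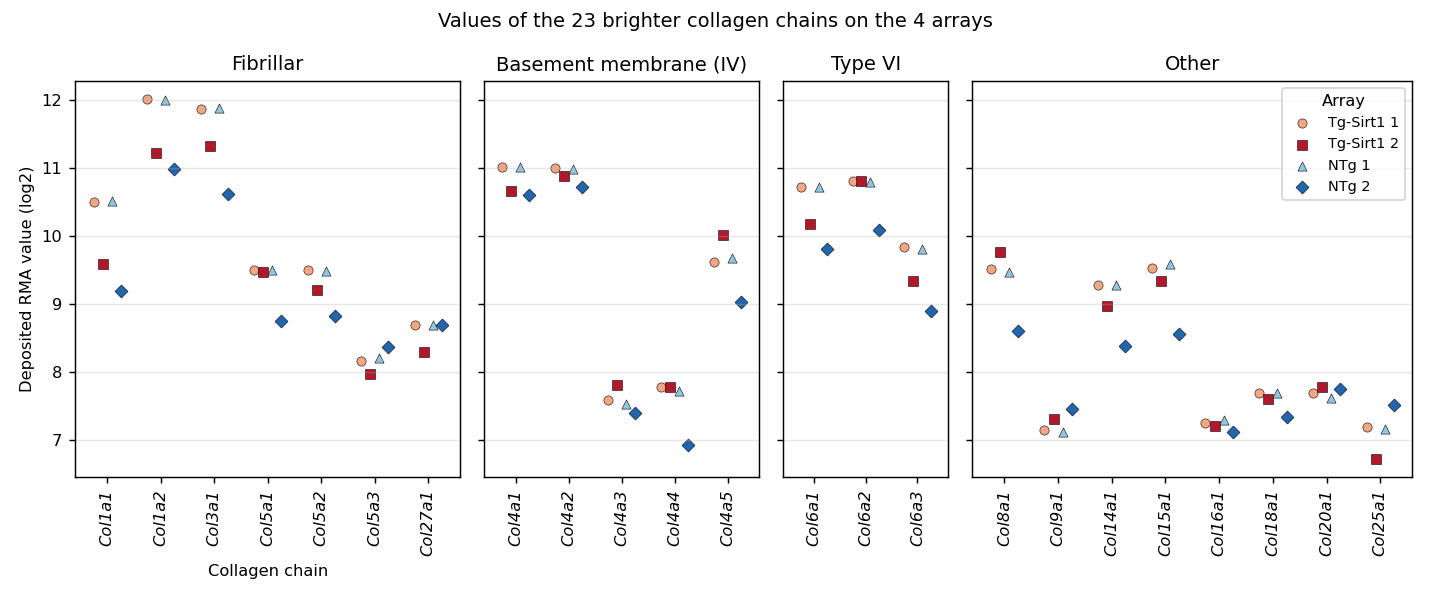
Log2 value on each array (Tg-Sirt1 arrays left of NTg arrays) for the brighter collagen chains, by class, 1 point per array. The array labelled Tg-Sirt1 1 and NTg 1 coincide, and NTg 2 is the lowest array for 18 of the 23 (78.3%, against 57.6% of the brighter genes).

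Among the brighter chains the median difference of NTg 2 from the near-identical pair was -0.67, and that of the brighter genes was -0.17. Tg-Sirt1 2 stood at least 1.5-fold above NTg 2 for 7 chains (16.7%, against 9.18% of all genes), namely Col3a1, Col4a4, Col4a5, Col5a1, Col6a2, Col8a1 and Col15a1. It stood 1.5-fold below NTg 2 for 1 chain, Col25a1 (2.57% of all genes). Against the near-identical pair Tg-Sirt1 2 was 1.5-fold higher for 0 chains (1.7% of all genes) and 1.5-fold lower for 2, Col1a1 and Col1a2 (2.64% of all genes). These are differences between single arrays, or between 1 array and the pair, with no test, and they share arrays with each other.

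**Figure D2:**
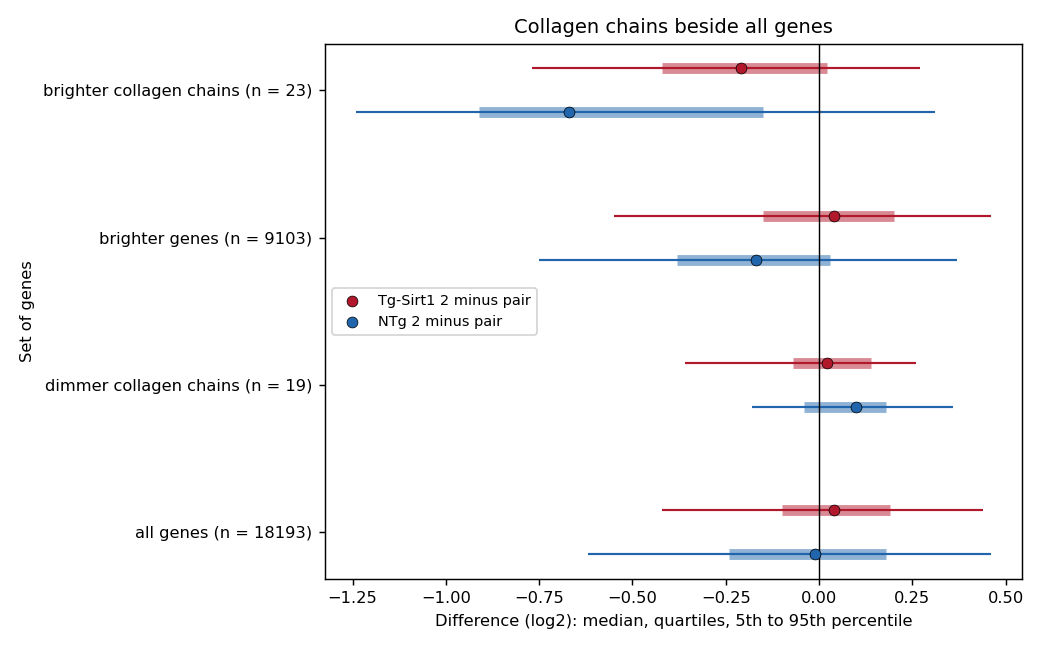
Differences of Tg-Sirt1 2 and of NTg 2 from the near-identical pair in log2 units, with the median as a point, the quartiles as a bar and the 5th to 95th percentile as a line, for brighter and dimmer collagen chains, brighter genes and all genes. The brighter collagen chains lie lower than the brighter genes in NTg 2 minus the near-identical pair (medians -0.67 and -0.17).

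Of the 7 brighter fibrillar chains, 5 read lowest on NTg 2, and Col5a3 and Col27a1 did not. Col1a1, which with Col1a2 forms the type I fibrils that make up most of the heart's collagen, read 10.50 and 9.58 on Tg-Sirt1 arrays 1 and 2, against 10.51 and 9.18 on NTg arrays 1 and 2, the order in which values are given throughout. Its partner Col1a2 read 12.01 and 11.21 on the Tg-Sirt1 arrays, against 11.99 and 10.98 on the NTg arrays. Both chains were highest on the near-identical pair, intermediate on Tg-Sirt1 2 and lowest on NTg 2, and the labels overlapped. The difference of NTg 2 from the pair was -1.33 for Col1a1 (2.51-fold lower) and -1.02 for Col1a2 (2.03-fold lower), and that of Tg-Sirt1 2 from the pair was -0.93 and -0.79. Means by label were 10.04 ± 0.65 in Tg-Sirt1 and 9.85 ± 0.94 in NTg for Col1a1 (SD, n = 2 each), a difference of 0.20 with a standard error of 0.49 (limma adjusted p = 0.994).

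Col3a1, the single chain of the thinner type III fibrils, read 11.86 and 11.32 on the Tg-Sirt1 arrays, against 11.88 and 10.61 on the NTg arrays. It was 2.39-fold lower on NTg 2 than on the pair and 1.64-fold higher on Tg-Sirt1 2 than on NTg 2. Type III thus stood in the same order of arrays as type I, with the Tg-Sirt1 2 value nearer the pair (-0.55). The difference between labels was 0.35 with a standard error of 0.42 (limma adjusted p = 0.994).

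Type V chains set the diameter of type I fibrils. Col5a1 read 9.49 and 9.46 on the Tg-Sirt1 arrays, against 9.49 and 8.75 on the NTg arrays, so 3 arrays lay within 0.03 of each other and NTg 2 was 1.67-fold lower than the pair. Col5a2, whose product joins that of Col5a1 in the usual type V molecule, read 9.50 and 9.20, against 9.48 and 8.82. Col5a3 ran otherwise. It read 8.16 and 7.96 on the Tg-Sirt1 arrays, against 8.20 and 8.37 on the NTg arrays, with NTg 2 the highest of the 4 and the labels apart by 0.04.

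Col27a1, a fibrillar chain best known from cartilage, read 8.68 and 8.29 on the Tg-Sirt1 arrays, against 8.69 and 8.69 on the NTg arrays. Here Tg-Sirt1 2 was the array that stood apart, and its difference from NTg 2 was -0.40. The 4 dimmer fibrillar chains were the cartilage chains Col2a1, Col11a1 and Col11a2 and the bone chain Col24a1. Col2a1 read 6.45 and 6.52, against 6.45 and 6.81, and Col11a2 read 5.69 and 5.22, against 5.56 and 5.58. Neither was lowest on NTg 2. For the 11 fibrillar chains together the median difference from the pair was -0.05 for NTg 2 and -0.29 for Tg-Sirt1 2. On Tg-Sirt1 2, 10 of 11 were lower than on the pair, as were 7420 of 18193 genes and 3939 of the 9103 brighter genes. Among the 10, Col24a1 and Col5a1 stood at only -0.02 and -0.03.

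**Figure D3:**
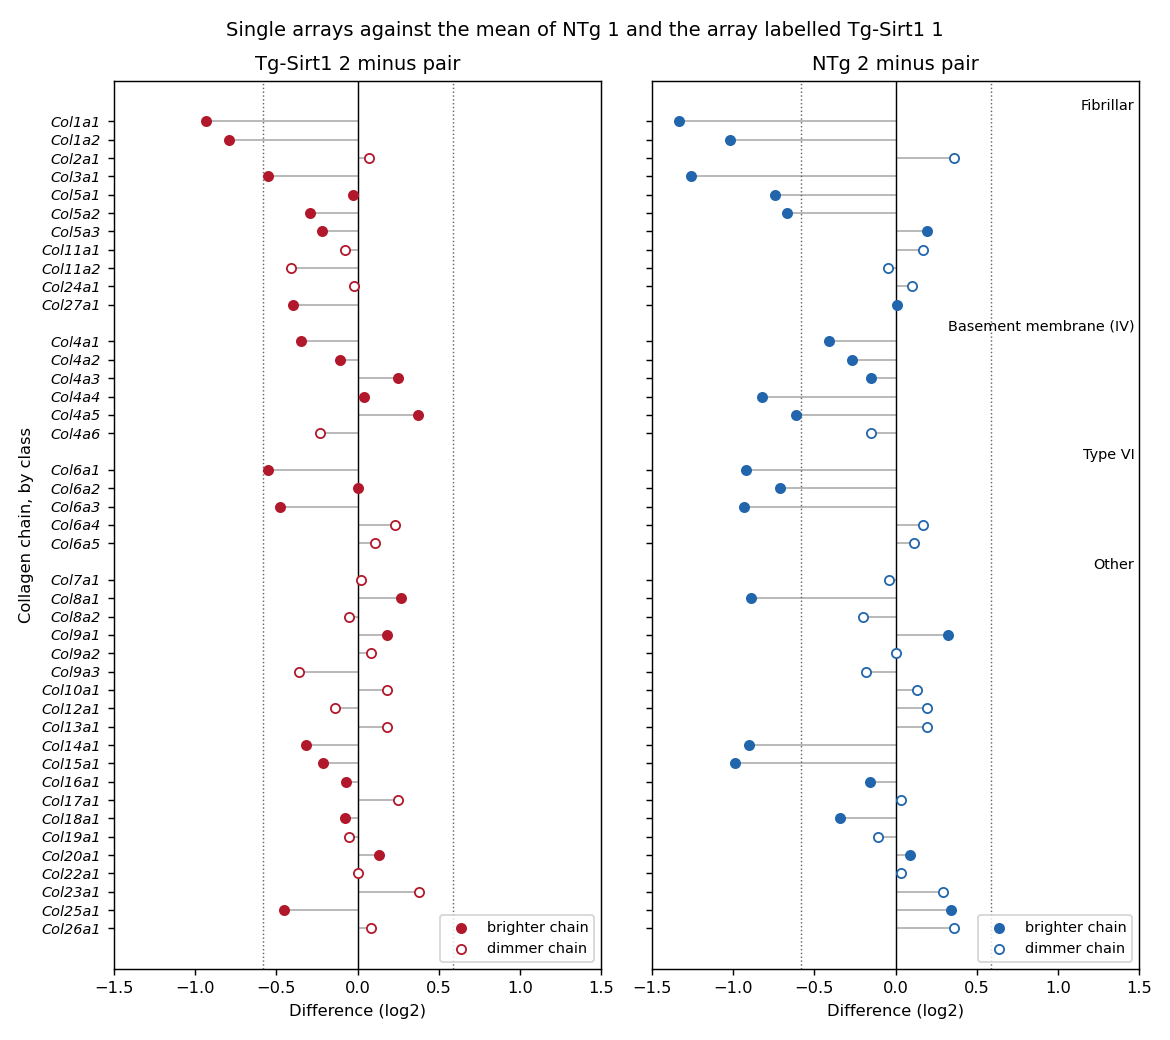
Differences in log2 units of Tg-Sirt1 2 (left) and of NTg 2 (right) from the near-identical pair, 1 point per collagen chain, by class, filled for the brighter chains, with dotted lines at 1.5-fold. Fibrillar chains reach down to -1.33 on NTg 2 and -0.93 on Tg-Sirt1 2 against the pair.

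The type IV chains of the basement membrane lay below the pair on NTg 2 in 6 of 6 genes, by less than type I. So did 9142 of 18193 genes and 6542 of the 9103 brighter genes lie below the pair there. Col4a1 read 11.01 and 10.66 on the Tg-Sirt1 arrays, against 11.01 and 10.60 on the NTg arrays. Col4a2, the neighbour that shares its start region, read 10.99 and 10.88, against 10.98 and 10.72. For both, the difference of Tg-Sirt1 2 from NTg 2 was small (0.06 and 0.16), and after a second quantile normalization it was -0.13 and -0.04.

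The chains of the specialised type IV network, best known from the kidney filter, differed more. Col4a5 read 9.61 and 10.01 on the Tg-Sirt1 arrays, against 9.67 and 9.03 on the NTg arrays, so Tg-Sirt1 2 was the highest array, 1.97-fold above NTg 2, while the labels overlapped. Col4a4 read 7.77 and 7.78, against 7.71 and 6.92, with NTg 2 alone low. Col4a3 read 7.58 and 7.80, against 7.52 and 7.40. The differences between labels were 0.46, 0.46 and 0.23, with limma adjusted p-values of 0.994 for each. Without NTg 2 those of Col4a5 and Col4a4 were 0.14 and 0.07. A second Col4a4 probe set read 7.49 and 7.25, against 7.47 and 7.33, with Tg-Sirt1 2 lowest, unlike the representative. A second Col4a5 probe set read 9.04 and 8.86, against 9.08 and 8.43. There NTg 2 was again lowest, but Tg-Sirt1 2 was not highest. Col4a6 was dimmer, with a mean of 6.72, and lay within 0.26 on all 4 arrays. Over the 6 chains the median difference was -0.34 for NTg 2 from the pair, and -0.03 for Tg-Sirt1 2 from the pair. On the representative probe sets type IV thus spanned -0.35 to 0.37 on Tg-Sirt1 2 against the pair, where type I spanned -0.93 to -0.79. This contrast depended on the probe set. The second probe sets of Col1a1 and Col1a2 lay at -0.24 and 0.00, and that of Col4a5 at -0.20.

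The 3 classical type VI chains, which are assembled together into beaded filaments, all read lowest on NTg 2. Col6a1 read 10.71 and 10.17 on the Tg-Sirt1 arrays, against 10.72 and 9.80 on the NTg arrays. Col6a2 read 10.81 and 10.80, against 10.79 and 10.09. Col6a3, the large chain that joins the others, read 9.83 and 9.34, against 9.81 and 8.89. On NTg 2 they lay at -0.92, -0.71 and -0.93 from the pair, a narrower span than that of type V (-0.74 to 0.19). On Tg-Sirt1 2, however, they differed among themselves, with Col6a2 level with the pair (0.00) and Col6a1 and Col6a3 at -0.55 and -0.48. Col6a4 and Col6a5 were dimmer, with means of 6.14 and 3.60.

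Among the 20 other chains, the vessel wall collagen Col8a1, a short-chain network former, had the largest difference between labels of the 42 on the representative probe sets. It read 9.51 and 9.76 on the Tg-Sirt1 arrays, against 9.47 and 8.60 on the NTg arrays, so that NTg 2 stood apart below the other 3. The label means were 9.64 ± 0.18 in Tg-Sirt1 and 9.04 ± 0.62 in NTg (SD, n = 2 each), a difference of 0.60 with a 95% confidence interval from -0.12 to 1.32 (limma adjusted p = 0.994). Tg-Sirt1 2 was 2.23-fold above NTg 2. Without NTg 2 the difference was 0.17, and with every Col8a1 probe set averaged it was 0.12, where Col3a1 had 0.54. With the pair counted once as Tg-Sirt1 it was 1.03 (limma adjusted p = 0.333), and with the pair counted once as NTg it was 0.72 (limma adjusted p = 0.998). Each of these countings leaves 1 label with a single array, NTg 2 or Tg-Sirt1 2, which limma assumes to vary like the other label. A second Col8a1 probe set read 9.06 and 7.12, against 9.02 and 8.04, and the remaining one read 6.53 and 5.85, against 6.53 and 5.48. The second put Tg-Sirt1 2 below NTg 2 and the others put it above, whereas all 3 put NTg 2 below the pair.

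Col14a1, a fibril-associated collagen with interrupted triple helices that sits on type I fibrils, read 9.28 and 8.96 on the Tg-Sirt1 arrays, against 9.28 and 8.38 on the NTg arrays. Its relative Col12a1 was dimmer and read 6.19 and 6.07, against 6.23 and 6.40, with NTg 2 highest. Col15a1 and Col18a1 belong to the multiplexins of basement membrane zones. Col15a1 read 9.52 and 9.34, against 9.58 and 8.56, and was 1.99-fold lower on NTg 2 than on the pair. Col18a1, whose end fragment is endostatin, read 7.68 and 7.60, against 7.68 and 7.34, a smaller difference in the same direction.

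The remaining brighter chains lay near the median gene. The fibril-associated Col9a1 read 7.14 and 7.31 on the Tg-Sirt1 arrays, against 7.12 and 7.45 on the NTg arrays. Col16a1 read 7.24 and 7.20, against 7.29 and 7.11, and Col20a1 read 7.69 and 7.78, against 7.62 and 7.74. None of these 3 spanned more than 0.33 over the arrays. The transmembrane collagen Col25a1 read 7.18 and 6.72, against 7.16 and 7.51. It was the 1 chain 1.5-fold lower on Tg-Sirt1 2 than on NTg 2, and its mean of 7.14 stood just inside the limit of the brighter chains, with Col10a1 at 6.74 just outside. On the representative probe sets of the 19 dimmer chains the difference of NTg 2 from the pair ran from -0.20 to 0.36 with a median of 0.10. There 0 chains were past 1.5-fold in any of the array differences. RMA damps differences of dim probe sets, so these values do not show that their transcripts are alike. A further Col22a1 probe set read 5.25 and 5.95, against 5.41 and 4.83. On it Tg-Sirt1 2 stood 1.12 above NTg 2 and 0.62 above the pair, both past 1.5-fold.

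How the near-identical pair was counted set the direction of several chains. Counted once as NTg, the pair gave differences of -0.26 for Col1a1, -0.28 for Col1a2, -0.15 for Col4a1, -0.09 for Col6a1 and -0.02 for Col6a3, all above 0 with the 4 arrays as labelled. Counted once as Tg-Sirt1, it gave 0.86, 0.63, 0.24, 0.64 and 0.69 for the same chains. With the pair left out, Tg-Sirt1 2 minus NTg 2 was 0.40, 0.23, 0.06, 0.37 and 0.45. In each of the fits with the pair counted once, which leave 1 label with a single array, limma called 0 of 18193 genes. Col3a1, Col4a4, Col4a5, Col5a1, Col6a2, Col8a1 and Col15a1 were above 0 in all 3 countings, as were some chains with smaller differences.

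The other probe sets of a chain gave a check on the representative ones. The chains had 40 further probe sets, of which 30 had the same sign as the representative for NTg 2 against the pair and 10 the opposite. Of the 12 further probe sets that were themselves above the median gene, 12 had the same sign as the representative for NTg 2 against the pair. For Tg-Sirt1 2 against NTg 2, 26 of all 40 had the same sign and 14 the opposite, and of the brighter 12, 7 had the same sign and 5 the opposite. A second Col3a1 probe set read 7.32 and 7.14 on the Tg-Sirt1 arrays, against 7.36 and 5.64 on the NTg arrays. A second for Col1a2 read 9.64 and 9.64, against 9.64 and 8.82, so there Tg-Sirt1 2 was level with the pair, unlike the representative. The second of Col3a1 was lowest on NTg 2, as was the representative.

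**Figure D4:**
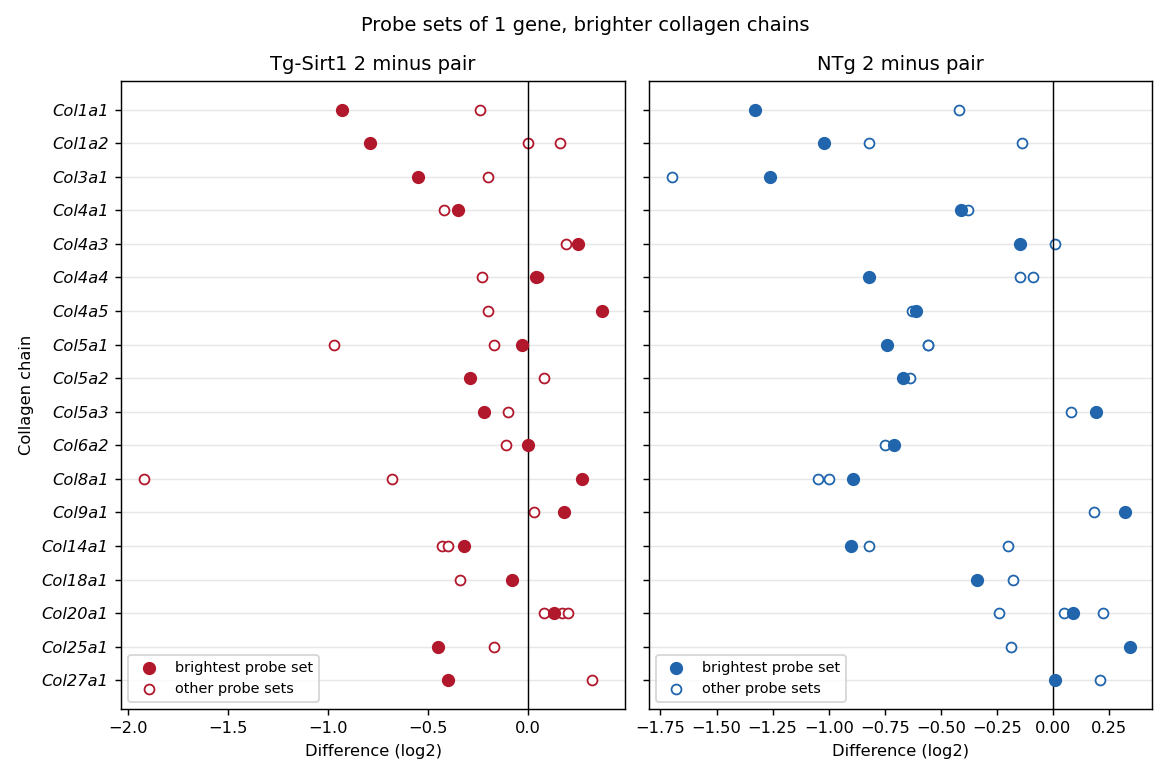
Differences of Tg-Sirt1 2 (left) and of NTg 2 (right) from the near-identical pair in log2 units, 1 point per probe set, for the 18 brighter collagen chains with more than 1 probe set, filled for the representative probe set. Further probe sets above the median gene lie on the same side of 0 as the representative for NTg 2 minus the pair in 12 of 12 cases.

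Scaling changed the sizes. A second quantile normalization left 9 of 42 chains at least 1.5-fold lower on NTg 2 than on the pair, with 3.6% of all genes, and the median of the brighter chains was -0.44 beside 0.01 for the brighter genes. Centring each array on its median gave 13 chains, with 8.12% of all genes. Under that second normalization 4 chains, against 7 as deposited, were 1.5-fold higher on Tg-Sirt1 2 than on NTg 2, with 6.75% of all genes.

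Genes that act on collagen were counted on 7 lists around the chains, and limma called 0 genes of each. Beside the counts of genes at least 1.5-fold lower on NTg 2 than on the pair stand the shares of 6.01% of all genes and 10.2% of the brighter genes given above. The second share is the nearer background for the folding, fibril-binding and basement membrane partner lists, which hold mostly brighter genes. The label mean was higher in Tg-Sirt1 for 13 and lower for 5 genes of folding and modification, 9 and 5 of cleavage and cross-linking, and 12 and 3 of fibril binding. It was higher for 10 and lower for 5 of degradation, 4 and 4 of the receptors, 11 and 3 of the basement membrane partners, and 13 and 3 of the TGF-beta pathway. It was higher for 53.1% of all genes and 67.7% of the brighter genes, so several of these splits are near the background. NTg 2 lay below the pair for 9142 of 18193 genes and for 6542 of the 9103 brighter ones. The folding and modification list held 18 measured genes of 20. Of these, 16 read lower on NTg 2 than on the pair, and 9 did so by 1.5-fold (median -0.54). Crtap, a partner of prolyl 3-hydroxylase, read 10.35 and 10.20 on the Tg-Sirt1 arrays, against 10.37 and 9.58 on the NTg arrays. Fkbp14, a prolyl isomerase of the endoplasmic reticulum, read 7.63 and 7.86, against 7.64 and 7.02. Plod2, the lysyl hydroxylase of collagen ends, read 8.79 and 9.18, against 8.78 and 8.81, and P3h2, a prolyl 3-hydroxylase, read 8.11 and 7.98, against 8.20 and 7.56. All but Plod2 were lowest on NTg 2.

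Among 14 measured genes of procollagen cleavage and cross-linking, 4 were 1.5-fold lower on NTg 2 than on the pair (median -0.04). Pcolce, an enhancer of procollagen C-proteinase, read 10.75 and 10.90 on the Tg-Sirt1 arrays, against 10.74 and 9.94 on the NTg arrays. Its relative Pcolce2 read 8.95 and 8.41, against 8.88 and 7.48. The cross-linking enzyme Loxl3 read 7.50 and 7.42, against 7.56 and 6.75, and the protease Mep1a read 6.05 and 5.79, against 5.99 and 6.16. The fibril-binding list of 15 genes had 8 at least 1.5-fold lower on NTg 2 (median -0.60). Lumican, Lum, which binds fibrils and spaces them, read 11.54 and 11.40, against 11.54 and 10.57. The matricellular protein Thbs2 read 8.42 and 8.49, against 8.37 and 7.91, and Dpt, a dermatopontin that binds decorin and fibrils, read 11.33 and 11.40, against 11.34 and 10.92. Aebp1, a collagen-binding protein, read 9.07 and 8.92, against 9.10 and 9.29, and of these 4 it alone was highest on NTg 2.

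The degradation list had 3 of 15 genes 1.5-fold lower and 1 higher on NTg 2 than on the pair (median -0.24). The higher one was the metalloproteinase inhibitor Timp4, which read 6.62 and 6.69 on the Tg-Sirt1 arrays, against 6.55 and 7.80 on the NTg arrays. Fap, a fibroblast surface protease, read 7.63 and 8.03, against 7.57 and 7.07. Reck, a membrane-bound protease inhibitor, read 8.12 and 8.41, against 8.09 and 7.71, and the protease Mmp3 read 4.09 and 4.06, against 4.15 and 4.46. Of 8 collagen receptors 2 were 1.5-fold lower (median -0.12). The receptor Ddr2, a tyrosine kinase that binds fibrillar collagen, read 8.60 and 7.75, against 8.55 and 8.31, with Tg-Sirt1 2 lowest. The label difference was 0.18, 0.24 and -0.08 for the collagen-binding integrin chains Itga10, Itga1 and Itga2. Basement membrane partners numbered 15, of which 5 were 1.5-fold lower on NTg 2 (median -0.37), and the laminin chain Lama4 read 9.84 and 9.68, against 9.83 and 9.08. The label difference was 0.40 for the linker Nid2, 0.31 for the proteoglycan Agrn and 0.23 for the laminin chain Lamb1.

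The TGF-beta pathway drives collagen transcription in fibroblasts. Of its 16 measured genes, 15 read lower on NTg 2 than on the pair (median -0.48), beside 6542 of the 9103 brighter genes. By 1.5-fold 6 did so, against 10.2% of the brighter genes. All 16 are brighter genes, and the median of Tg-Sirt1 2 from the pair was 0.06. Smad3, a signal transducer of the pathway, read 9.36 and 9.69 on the Tg-Sirt1 arrays, against 9.34 and 8.68 on the NTg arrays. The receptor Tgfbr1 read 9.29 and 9.81, against 9.29 and 8.88. Tgfbr2 read 10.28 and 10.43, against 10.25 and 9.74, and the co-receptor Tgfbr3 read 10.57 and 10.83, against 10.58 and 10.30. These 4 have the smallest p of the list, and in each Tg-Sirt1 2 was the highest array and NTg 2 the lowest. Other members ran otherwise. At least 1.5-fold lower on Tg-Sirt1 2 than on the pair were 4 of the 16, against 4.47% of the brighter genes. They were the ligands Tgfb1, Tgfb2 and Tgfb3 and the latent binding protein Ltbp4, named after their values were seen. Tgfb2 read 8.25 and 6.82, against 8.26 and 7.57, and Ltbp4 read 10.89 and 9.56, against 10.86 and 9.78, with Tg-Sirt1 2 lowest in both.

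Markers of the cells that make collagen also differed between the arrays. All 10 fibroblast markers, each a brighter gene, read lower on NTg 2 than on the near-identical pair (median -0.73), beside 6542 of the 9103 brighter genes. By 1.5-fold 7 of them did so, against 10.2% of the brighter genes. Their mean log2 value was 10.62 and 10.23 on the Tg-Sirt1 arrays, against 10.61 and 9.89 on the NTg arrays, the same order of arrays as for type I collagen. Of the 10, 8 were lowest on NTg 2, whereas Ddr2 and Pi16 were lowest on Tg-Sirt1 2. For the 8 endothelial markers the mean was 9.47 and 9.15, against 9.48 and 9.12, and for the 8 cardiomyocyte markers it was 13.77 and 13.64, against 13.77 and 13.68. The order was not particular to fibroblast markers, since macrophage means shared it (9.40 and 9.23, against 9.40 and 8.96). Endothelial means and those of smooth muscle and pericyte markers (9.98 and 9.64, against 9.99 and 9.61) were nearly level on Tg-Sirt1 2 and NTg 2. By gene, Tg-Sirt1 2 was above NTg 2 for 3 endothelial markers and below for 5 (median -0.06). The split was 4 and 4 for smooth muscle and pericyte, 8 and 2 for fibroblast (median 0.40) and 5 and 1 for macrophage markers (median 0.44). Tg-Sirt1 2 was above NTg 2 for 6208 of the 9103 brighter genes. The fibroblast markers Dcn, Lum and Dpt are also on the fibril-binding list. The median difference of NTg 2 from the pair was -0.38 for endothelial markers, -0.18 for smooth muscle and pericyte markers and -0.47 for macrophage markers. It was -0.02 for valve, tendon and cartilage markers, -0.05 for mesothelium, 0.44 for Schwann cells, 0.09 for skeletal muscle and 0.12 for epithelium. The part of these markers in the collagen values was not tested. No array value was at 0, since RMA gives none.

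**Figure D5:**
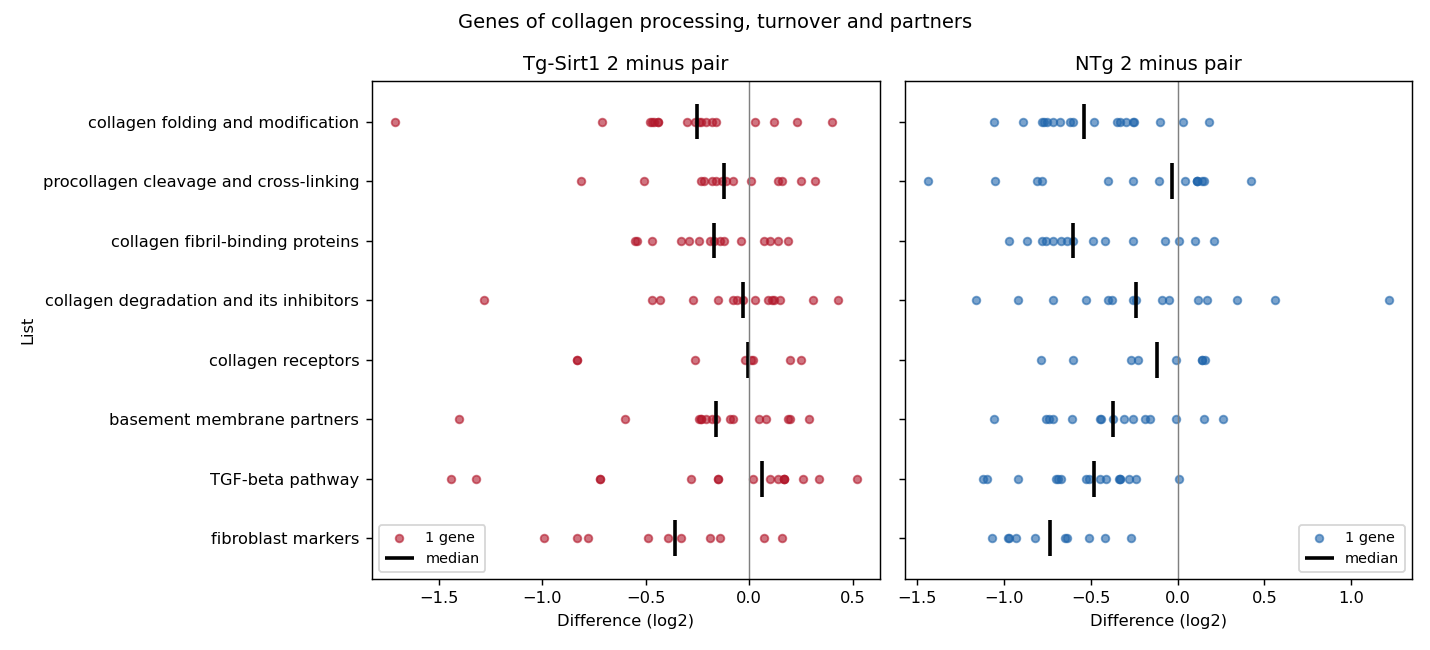
Differences of Tg-Sirt1 2 (left) and of NTg 2 (right) from the near-identical pair in log2 units, 1 point per gene with the median as a bar, for the lists of collagen-related genes and the fibroblast markers. The fibroblast markers have a median of -0.73 for NTg 2 minus the near-identical pair.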

How the data were processed

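The values, as deposited by the authors, are on the log2 scale, 1 per probe set and array. They were made by RMA, and Affymetrix Expression Console is also named, per the submitters' processing notes. RMA corrects background, quantile normalizes arrays and summarises probes, which removes a change in total RNA. Scanner files, detection calls and scan dates were not used here. Of 45101 probe sets, 64 controls were left out. A single symbol was annotated for 34945 probe sets, several for 932 and none here for 9160, and 34741 matched the RefSeq table of GRCm38.p6 by Entrez identifier.

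Groups follow the labels, and p-values measure only the spread between these arrays. Tests used limma 3.58.1 in R 4.3.3 (lmFit and eBayes, two-sided, fitted on 18193 genes). Members and lists were chosen with earlier results of these data known. Values on all arrays are given for chains at or above the median brightness and for the 3 dimmer chains with the largest difference between Tg-Sirt1 2 and NTg 2, and up to 4 genes per pathway list are named by smallest unadjusted p. Upstream windows came from RefSeq, with mouse chromosome 18 left out and the outermost window kept per gene. Python 3.11.15, pandas 2.3.3 and matplotlib 3.10.9 were used. Alternatives are given in the closing section.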

Additional observations from a re-analysis of the deposited data

How the results depend on the processing

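All values here are differences in log2 units, Tg-Sirt1 minus NTg, unless they are counts. Under every alternative that allows a test, limma called 0 genes. Of 26 chains given by array, 17 changed sign in at least 1 alternative and 9 in none. Leaving out 1 array in turn gave -0.47 to 0.86 for Col1a1, -0.38 to 0.63 for Col1a2, -0.29 to 0.98 for Col3a1, -0.18 to 0.24 for Col4a1, -0.05 to 0.22 for Col4a2, -0.02 to 0.73 for Col5a1, -0.13 to 0.53 for Col5a2, -0.28 to 0.64 for Col6a1, -0.23 to 0.70 for Col6a3, -0.23 to 0.11 for Col9a1, -0.16 to 0.74 for Col14a1, -0.15 to 0.87 for Col15a1, -0.07 to 0.11 for Col16a1, -0.04 to 0.30 for Col18a1, -0.01 to 0.12 for Col20a1, -0.33 to 0.04 for Col2a1, -0.35 to 0.12 for Col11a2. The 9 that kept their sign also moved, with ranges of 0.17 to 1.04 for Col8a1, 0.07 to 0.86 for Col4a4, 0.14 to 0.78 for Col4a5, 0.02 to 0.72 for Col6a2, 0.12 to 0.34 for Col4a3, -0.40 to -0.01 for Col27a1, -0.62 to -0.16 for Col25a1, -0.33 to -0.13 for Col5a3 and -0.27 to -0.10 for Col12a1. The lowest of Col8a1, Col4a4, Col4a5 and Col6a2 came without NTg 2. Each fit without an array leaves 1 label with a single array, assumed to vary like the other. Without NTg 2 the chains with a higher Tg-Sirt1 mean numbered 17, against 28 with all arrays, and the range over arrays left out was 17 to 26. The same ranges were -0.02 to 0.06 for the median of all chains (0.04 as labelled), -0.16 to 0.12 for fibrillar chains (-0.06), 0.01 to 0.26 for type IV (0.16), 0.02 to 0.64 for type VI (0.18) and 0.01 to 0.05 for the other chains (0.03). With the near-identical pair counted once as NTg, values were -0.26 for Col1a1, -0.28 for Col1a2, -0.15 for Col4a1, -0.09 for Col6a1, -0.02 for Col6a3, 0.02 for Col9a1 and 0.07 for the median of the other chains. Counted once as Tg-Sirt1, the pair gave -0.02 for Col20a1 and 0.64 for the median of type VI, and 2603 genes, against 10 as labelled, had an unadjusted limma p under 0.05. With the pair left out the median of the other chains was 0.06. Without dim probe sets the medians were 0.13 for all chains, 0.16 for fibrillar and 0.05 for the others. A second quantile normalization gave -0.07 for Col4a1, -0.02 for Col4a2, 0.07 for the median of the others and 4 chains 1.5-fold higher on Tg-Sirt1 2 than on NTg 2 (7 as deposited). Centring on medians gave 0.06 for the others. Averaging every probe set of a gene left 2 chains with both Tg-Sirt1 arrays above both NTg arrays (4 as deposited) and 4 chains 1.5-fold higher on Tg-Sirt1 2. The replicate numbers do not pair the mice in the labels, and same-numbered arrays deviated with a correlation of 0.293. A fit with the replicate number as a block called 0 genes and left each difference as it was. The single-array scaling checks were chosen after seeing the data, and the cause of these changes was not tested. The number of arrays limits the precision.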
